A study of Homo sapiens with 2 samples.

Results

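Tetraspanins are membrane proteins that cross the membrane 4 times, and the genes CD37, CD53, CD63, CD81, CD82, CD9 and CD151 encode 7 of them. Transcripts of these 7 genes were followed in GM12878, a B-lymphoblastoid line made by transforming human B cells with Epstein-Barr virus. The genes were taken by symbol from the table of transcript models, where they are 7 of 16645 annotated genes with a read and account for 258 of 237608 models. RNA of the line was read as native strands by nanopore direct RNA sequencing, which starts at the 3′ end of each strand. There is 1 group of 2 libraries, replicate 1 and replicate 2, with no treatment and no second line, so the design compares only the replicates with each other. The labels do not say whether the replicates came from separate cultures, so a p-value here measures the difference between these 2 sets of reads.

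Tetraspanins have 2 extracellular loops, and the larger one carries a Cys-Cys-Gly signature whose cysteines form disulfide bonds. They bind integrins, immunoglobulin superfamily proteins and one another, and so gather partner proteins into membrane microdomains. On B cells, CD81 takes part in the coreceptor complex of the B cell receptor. CD37 and CD53 are found mainly on leukocytes, CD63 is abundant in late endosomes, lysosomes and exosomes, and CD9, CD82 and CD151 are also widely present outside the blood.

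The annotated exon structures show what a complete read of each gene has to cover. The known model with the most reads (the main model) was CD37-201, CD53-201, CD63-201, CD81-201, CD82-201, CD9-201 and CD151-202. Their reading frames hold 281, 219, 238, 236, 267, 228 and 253 codons. A coding exon of 75 bases was present in each of the 7 main models, always 2 exons before the exon that holds the signature codons. The Cys-Cys-Gly codons of the large loop lay in the third exon from the 3′ end in all 7, and began 6 bases after the start of that exon. They are printed here in capitals with 24 bases of coding sequence on each side, 5′ to 3′ on the transcript strand, from GENCODE release 29 transcripts. They mark how far a read from the 3′ end must reach to include this signature, which lies within the loop.
CD37: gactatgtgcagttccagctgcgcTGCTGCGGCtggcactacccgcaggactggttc
CD53: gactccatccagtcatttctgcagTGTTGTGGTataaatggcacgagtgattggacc
CD63: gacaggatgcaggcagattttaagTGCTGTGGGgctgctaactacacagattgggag
CD81: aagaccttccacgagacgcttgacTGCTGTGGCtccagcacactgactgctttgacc
CD82: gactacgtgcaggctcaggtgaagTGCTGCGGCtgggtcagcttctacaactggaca
CD9: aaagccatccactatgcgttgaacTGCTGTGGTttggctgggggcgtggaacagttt
CD151: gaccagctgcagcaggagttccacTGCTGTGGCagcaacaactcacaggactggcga

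On GRCh38 the capital letters lie at chr19:49338706-49338714 (CD37, exon 6 of 8), chr1:110896659-110896667 (CD53, exon 6 of 8) and chr12:55726247-55726255 (CD63, minus strand, exon 6 of 8). In CD81 they lie at chr11:2395875-2395883 (exon 6 of 8), in CD82 at chr11:44618168-44618176 (exon 8 of 10), in CD9 at chr12:6235482-6235490 (exon 6 of 8) and in CD151 at chr11:837466-837474 (exon 7 of 9). The search was for TGT or TGC, again TGT or TGC, and then GGN, in the annotated frame of the sense strand only. CD63, CD81 and CD9 held a second match elsewhere in the frame, and for these the match in the third exon from the 3′ end was taken after both had been seen. Of 8178 coding main models of all genes, 127 held such a match (1.55%, 95% Wilson interval 1.31 to 1.84%). From the signature to the annotated 3′ end, a strand of CD63-201 has 359 bases, CD9-201 665, CD37-201 671, CD81-201 799, CD151-202 943, CD53-201 964 and CD82-201 1597 bases. CD82 thus has the longest stretch to be read, most of it in a last exon of 1315 bases.

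**Figure D1:**
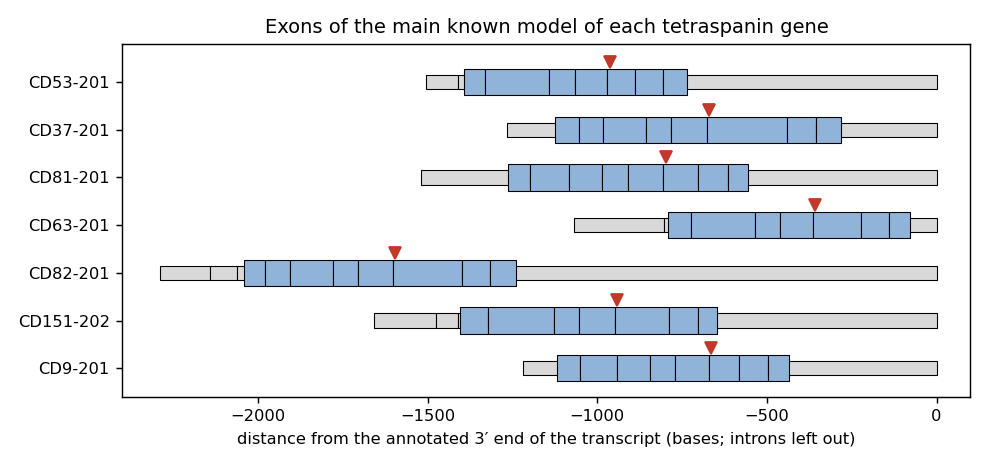
Exons of the main known model of each gene, drawn to scale against the distance from the annotated 3′ end in bases, with introns left out; wide blue boxes are coding, narrow grey boxes are untranslated, and the red triangle marks the Cys-Cys-Gly codons. The triangle stands at the start of the third exon from the 3′ end in each model, 359 bases from the end in CD63-201 and 1597 in CD82-201.

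Replicate 1 held 1360368 reads and replicate 2 held 1510998, so 3 reads, the limit that a count of 0 allows, correspond to 2.21 and 1.99 CPM, that is reads per 1000000 reads of the library. The B cell identity of the line was visible in both libraries: all 7 markers on the B cell list had reads, among them CD79A with 688 and 679 CPM and MS4A1 with 265 and 275 CPM. Of 13 markers of other lineages, 8 had no read, and their summed level was 6.62 and 17.2 CPM. CD3E, with 5 and 16 reads, made up most of that sum. No annotated gene overlapped any of the 7 on the same strand.

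CD53, CD37, CD81 and CD63 were the most abundant of the 7 tetraspanin mRNAs, CD82 stood below them, CD151 was lower again and CD9 was near the limit that a count of 0 allows. A level is a share of the RNA of the library, and more cells and more RNA per cell cannot be told apart in it. CD53 (ENSG00000143119.13, chr1:110871188-110899928, plus strand) had 415 and 446 reads, 305 and 295 CPM. CD37 (ENSG00000104894.11, chr19:49335171-49343335, plus strand) had 363 and 485 reads, 267 and 321 CPM. In order of mean level, 430 of the 16645 genes stood at or above CD53 and 438 at or above CD37, and the median over the 10634 genes with at least 10 reads was 22.1 CPM. CD81 (ENSG00000110651.11, chr11:2376177-2397419, plus strand) had 357 and 335 reads, 262 and 222 CPM. CD63 (ENSG00000135404.11, chr12:55725323-55729707, minus strand) had 254 and 338 reads, 187 and 224 CPM. The values of CD53 and CD37 overlapped, as did those of CD81 and CD63, so the order within each of these pairs is not resolved by the 2 libraries.

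CD82 (ENSG00000085117.11, chr11:44564427-44620363, plus strand) had 228 and 194 reads, 168 and 128 CPM, below CD63 in both libraries. CD151 (ENSG00000177697.18, chr11:832843-839831, plus strand), known as a partner of laminin-binding integrins, had 44 and 69 reads, 32.3 and 45.7 CPM. CD9 (ENSG00000010278.13, chr12:6199715-6238271, plus strand) had 6 and 5 reads, 4.41 CPM (Wilson interval 2.02 to 9.62) and 3.31 CPM (1.41 to 7.75). As means over the libraries the levels were 300.1 CPM ± 6.997 (SD, n = 2) for CD53, 294 ± 38.3 for CD37, 242 ± 28.8 for CD81, 205 ± 26.1 for CD63, 148 ± 27.7 for CD82, 39.0 ± 9.42 for CD151 and 3.86 ± 0.779 for CD9. Since each strand is read from its 3′ end, a count need not grow with transcript length, so CPM per kb is only a second scale. Expressed as CPM per kb of known model, CD37 came first with 233 ± 30.4 (SD, n = 2), followed by CD63 with 213 ± 27.2 and CD53 with 209 ± 4.87, whose ranges overlapped with their neighbour. CD81 then had 167, CD82 64.7, CD151 24.7 and CD9 3.17 CPM per kb, each apart from the gene before it in both libraries.

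None of the 7 genes differed in level between the libraries after adjustment over all genes (two-sided exact binomial test, Benjamini-Hochberg), against 5.05% of the 10634 genes tested, 2.72% higher and 2.33% lower in replicate 2. At an unadjusted p under 0.05 there were 4 of 7, against 15.8% of all genes. CD82 had the smallest adjusted p, at 0.0936 with a log2 ratio of replicate 2 to replicate 1 of -0.38, and CD37 followed at 0.110 with a log2 ratio of 0.27. CD63 had a log2 ratio of 0.26 and CD81 of -0.24, and CD53 lay at -0.05. Summed, the 7 genes took 1225 and 1239 CPM.

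**Figure D2:**
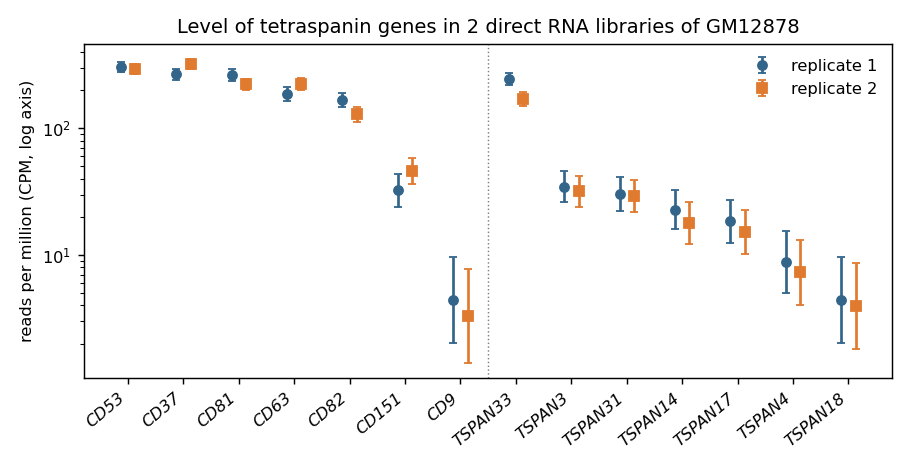
Level in CPM (log axis) of the 7 genes, left of the dotted line, and of the other tetraspanin genes with at least 10 reads, right of it, in replicate 1 (circles) and replicate 2 (squares) with 95% Wilson intervals. CD53, CD37, CD81, CD63 and CD82 lie between 128 and 321 CPM, and CD9 lies at 3.31 to 4.41 CPM.

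The genes also differed in how many of their reads belonged to known models, that is annotated transcripts. Some of these are short, such as CD63-205 with 3 exons and CD53-202 with 2. CD63 had 6 known models with a read and CD82 had 1, so a known share also depends on which transcripts are annotated. Each read is assigned to a model that is known, an incomplete splice match (ISM, which keeps only some consecutive junctions of a known transcript), a new combination of annotated splice sites (NIC), a model with an unannotated site (NNC), or genomic, which overlaps a gene without matching its splicing. In CD63, known models held 228 of 254 reads in replicate 1 (89.8%) and 264 of 338 in replicate 2 (78.1%), the highest known share among the genes in both libraries. CD81 followed with 72.3% and 60.0%, CD37 with 65.3% and 50.1%, and CD53 with 57.6% and 35.4%. CD82 had only 74 of 228 reads (32.5%) and 32 of 194 reads (16.5%) in known models, and CD151 had 12 of 44 (27.3%) and 12 of 69 (17.4%). The medians over the 6340 genes with at least 20 reads in each library were 32.5% and 17.5%, so CD63, CD81, CD37 and CD53 stood above them in both libraries. CD82 and CD151 stood below them. Pooled over all annotated genes, known models held 56.5 and 46.4% of the reads. CD63, CD81 and CD37 were above these pooled shares in both libraries, CD53 only in replicate 1, and CD82 and CD151 were far below.

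**Figure D3:**
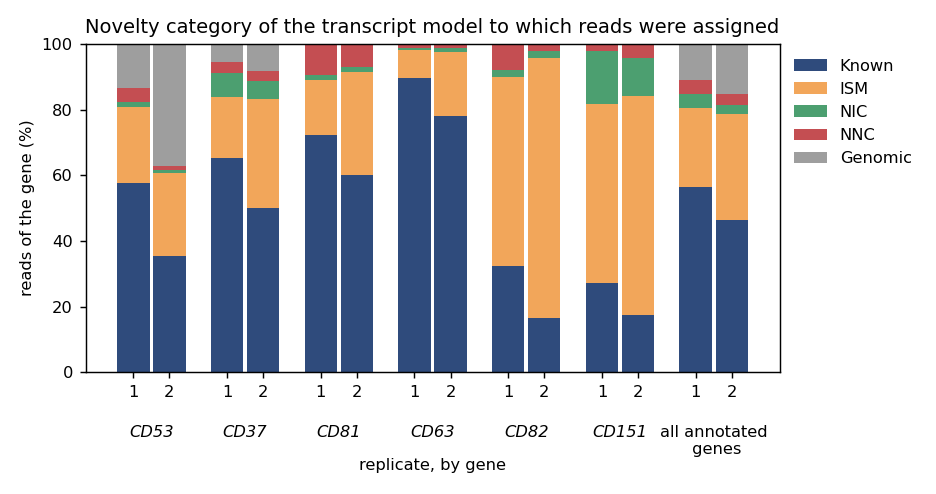
Percent of the reads of each gene in known, ISM, NIC, NNC and genomic models, in replicates 1 and 2, for 6 of the genes (CD9, with 11 reads, is left out) and for all annotated genes. Known models shrink from replicate 1 to replicate 2 in each gene, ISM models hold most reads of CD82 and CD151, and the genomic part of CD53 grows from 13.5 to 37.2%.

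The known share was lower in replicate 2 in all 6 genes that could be tested, and it passed the test in 5 (Fisher's exact test, adjusted over all genes), against 26.9% of all genes tested that were called lower. CD53 fell by 22.2 percentage points (adjusted p = 2.50e-09), and the differences were -15.96 in CD82 (0.00156), -15.2 in CD37 (0.000129), -12.3 in CD81 (0.00476) and -11.7 in CD63 (0.00133). CD151 had a difference of -9.88 points (adjusted p = 0.438, Fisher's exact test). The 5 called genes had at least 194 reads in each library and CD151 had 44 and 69, while the genes tested needed only 20. Deeper genes are called more readily, and no count of called genes here was set against genes of like depth. The median difference over all genes was -8.62 points, so the direction was shared with the libraries as a whole. Counting known reads against ISM reads only (the full splice share), the same 5 genes were called lower in replicate 2, against 35.3% of the 4502 genes tested. CD151 was lower too, at 33.3 and 20.7%, but did not pass (adjusted p = 0.368, Fisher's exact test). CD82 fell from 36.1 to 17.2%, CD37 from 78.0 to 60.1%, CD81 from 81.1 to 65.7%, CD53 from 71.3 to 58.3% and CD63 from 91.6 to 80.0%. When only models with 2 or more exons were counted, the calls of CD81 and CD82 were lost for both shares. CD81 then differed by -4.12 points in known share (adjusted p = 0.465, Fisher's exact test) and -6.21 in full splice share (0.0728). CD82, left with fewer reads, still differed by -9.43 points (0.433) and -15.2 points (0.143).

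**Figure D4:**
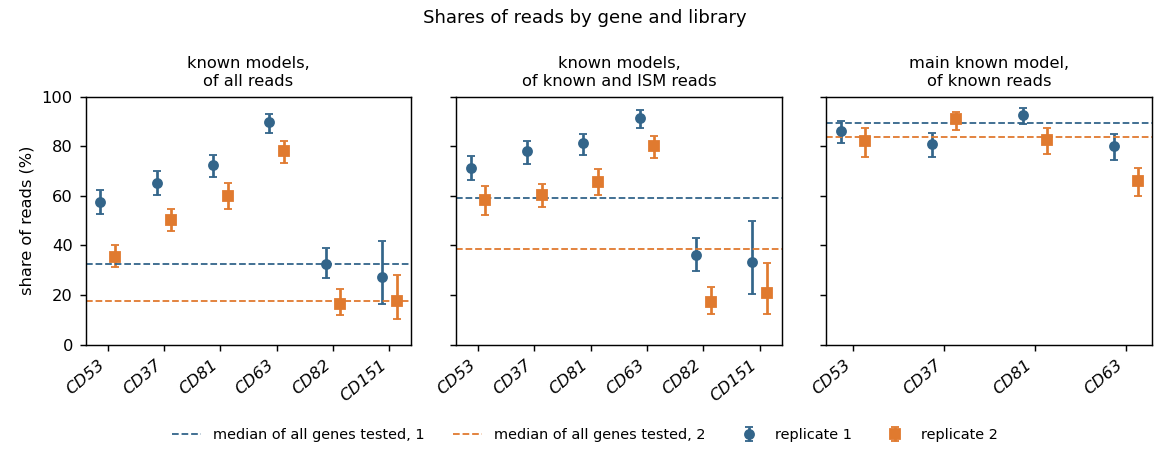
Share of reads in known models among all reads (left), in known models among known and ISM reads (middle), and in the main known model among known reads (right), for each gene that could be tested, in replicate 1 (circles) and replicate 2 (squares) with 95% Wilson intervals; dashed lines are medians over all genes tested. Replicate 2 lies below replicate 1 throughout the left and middle panels, and CD82 and CD151 lie lowest there.

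CD53 differed from the other genes in its genomic reads. A single genomic model of 1 exon and 2253 bases held 56 of 415 reads in replicate 1 (13.5%, 10.5 to 17.1%) and 166 of 446 in replicate 2 (37.2%, 32.9 to 41.8%), and the intervals did not overlap. This share rose by 23.7 points (adjusted p = 1.59e-13, Fisher's exact test chosen after the values were seen), against a median of 1.91 over all genes and 10.4% of genes called higher. The length of the model exceeds the 1505 bases of CD53-201, and its position in the gene is not given in the table. CD37 had genomic reads too, 20 of 363 (5.51%) and 40 of 485 (8.25%), a difference that did not pass (adjusted p = 0.504). CD63, CD82 and CD151 had no genomic read in either library, CD81 had 1 in replicate 2 and CD9 had 1 in each. With genomic models left out, the known share of CD53 still differed by -10.1 points (adjusted p = 0.0435, Fisher's exact test).

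These genomic reads also entered the level of CD53. Without genomic models CD53 had 359 and 280 reads, 264 and 185 CPM, and fell by 0.51 on the log2 scale (adjusted p = 0.000344, exact binomial test). It was the only one of the 6 testable genes called in that count, against 6.93% of all genes called lower; over all genes the median log2 ratio in that count was -0.15. With known models only, CD53 (176 and 105 CPM), CD81 (190 and 133 CPM) and CD82 (54.4 and 21.2 CPM) were lower in replicate 2, against 27.6% of all genes called lower and a median log2 ratio of -0.55. Their log2 ratios were -0.75, -0.51 and -1.35. CD63 had 168 and 175 CPM in known models and CD37 had 174 and 161 CPM, and neither passed.

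In CD82 the model with the most reads was a single exon. The ISM model ENCODEHT000338963, a single exon of 1315 bases, held 97 of 228 reads in replicate 1 (42.5%, 36.3 to 49.0%) and 126 of 194 in replicate 2 (64.9%, 58.0 to 71.3%). Its length equals that of the last exon of CD82-201, which holds only 75 of the 801 coding bases. In CD151, ENCODEHT000224305, a single exon of 666 bases, held 7 and 17 reads, 15.9 and 24.6%. Its length equals that of the last exon of CD151-213, a known model with 0 and 1 read, while the last exon of CD151-202 has 703 bases. CD81 had ENCODEHT000228169, a single exon of 593 bases against 616 bases in the last exon of CD81-201, with 39 reads (10.9%) and 73 reads (21.8%). CD37 and CD53 had no single-exon ISM model, and CD63 had one of 179 bases with 0 and 4 reads. Over all annotated genes, ISM models of 1 exon that are neither suffix nor prefix held 3.65 and 5.56% of the reads.

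The share of reads that could be counted as reaching the Cys-Cys-Gly codons printed earlier differed between the genes. Reads were counted as reaching them when they lay in a known model whose exons include those bases, or in an ISM model that keeps the 3′ end (suffix) and has 3 or more exons, among all known and ISM reads of the gene. For suffix models this takes their exons to be those of the main model, which lengths show is not so for all of them. ENCODEHT000228132 of CD81 has 4 exons and 1476 bases, but the fourth exon from the 3′ end of CD81-201 begins at base 611 of 1520. It held 7 of the 18 and 13 of the 31 suffix reads counted in CD81. ENCODEHT000640244 of CD63, with 4 exons, is longer than ENCODEHT000640235 with 6. Whether such models contain the codons was not tested. A suffix model of 3 exons may also begin after the codons, within the third exon. It was counted all the same, so the shares are upper limits in this respect. Lengths of such models fell on both sides of the distance from the codons to the annotated 3′ end. ENCODEHT000338955 of CD82 had 1495 bases against 1597, and ENCODEHT000535095 of CD37 had 673 against 671. CD63 had 247 of 249 such reads in replicate 1 (99.2%) and 305 of 330 in replicate 2 (92.4%). CD53 had 97.0 and 93.0%, and CD37 had 96.1 and 92.1%. CD81 had 84.6 and 71.2%, and CD151 had 29 of 36 (80.6%) and 37 of 58 (63.8%). CD82 had 104 of 205 (50.7%, 43.9 to 57.5%) and 51 of 186 (27.4%, 21.5 to 34.2%), the lowest share in both libraries. The distance to the codons is longest in CD82, but CD53 with 964 bases had higher shares than CD81 with 799. A link between distance and share was not tested. In CD9, 4 of 4 reads in each library were counted as reaching them, too few to place it.

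Suffix models had a range of exon numbers, and fewer exons did not always mean fewer bases. In CD37 they had 2 to 8 exons. Those of 3 exons held 13 and 45 reads and those of 4 exons 12 and 34 reads, while those of 7 exons held 13 and 18 reads, and the larger gains in reads were in the shorter models. The most used were ENCODEHT000535095 (3 exons, 673 bases) with 10 and 45 reads, ENCODEHT000535049 (4 exons, 778 bases) with 12 and 34, and ENCODEHT000534383 (7 exons, 1304 bases) with 12 and 14. In CD53 the suffix reads were spread over 2 to 8 exons, with 24 and 27 reads at 4 exons, 13 and 35 at 6 and 28 and 20 at 7. Its suffix model of 3 exons, ENCODEHT000549341 with 8 and 9 reads, has 1860 bases, more than the 1505 of CD53-201. In CD63 they were concentrated in ENCODEHT000640235 (6 exons, 695 bases), with 10 and 31 reads, and ENCODEHT000640244 (4 exons, 764 bases), with 7 and 20 reads. The model of 4 exons has more bases than that of 6, so it is not a shorter step of the same exon series. CD151 had suffix models of 2 to 5 exons with 0 reads in replicate 1 and 15 reads in replicate 2, and of 6 to 8 exons with 17 and 12 reads. Prefix models, which keep the 5′ end, were rare in all 7 genes together, with 13 and 27 reads against 242 and 394 in suffix models. The mean number of exons of the models read, genomic models left out, went from 5.54 to 3.39 in CD82, from 6.68 to 5.09 in CD151, from 6.88 to 5.82 in CD81, from 7.38 to 6.62 in CD37, from 7.34 to 6.38 in CD63 and from 7.27 to 6.60 in CD53.

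Among known models, 1 model dominated each of CD37, CD53, CD63, CD81 and CD82, and the minor models differed in kind. In CD37, CD37-201 held 192 of 237 known reads in replicate 1 (81.0%) and 221 of 243 in replicate 2 (90.9%). CD37-203 held 26 and 7 reads. It leaves exon 1 at a splice site 34 bases upstream of that of CD37-201 and its annotated frame has 213 codons in place of 281. CD37-208, with 13 and 9 reads, ends exon 2 4 bases earlier, has an annotated frame of 121 codons and is annotated as a target of nonsense-mediated decay. CD37-204, whose last exon begins with the penultimate exon of CD37-201 and runs on, held 4 and 4 reads and has 270 codons. The stretches that tell CD37-203 and CD37-208 from CD37-201 are shown next, 5′ to 3′, because the annotated frames of these models differ in length.
CD37-201 from position chr19:49335576 to the first 30 bases of exon 2, with the 34 bases absent from CD37-203 in capitals: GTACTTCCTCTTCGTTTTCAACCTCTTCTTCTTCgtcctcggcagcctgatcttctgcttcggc
CD37-201 at the junction of exons 2 and 3, with the 4 bases absent from CD37-208 (chr19:49335783-49335786) in capitals: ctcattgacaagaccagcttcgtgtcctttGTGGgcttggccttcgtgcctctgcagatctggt
CD37-208 at the same junction: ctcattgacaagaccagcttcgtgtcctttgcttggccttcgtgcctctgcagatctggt

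CD63 had 6 known models, all read in both libraries. CD63-201 held 183 of 228 known reads in replicate 1 (80.3%) and 174 of 264 in replicate 2 (65.9%). CD63-214, with 25 and 21 reads, and CD63-208, with 3 and 2 reads, begin at other first exons and have the same 238 codons. CD63-205, an annotated retained-intron transcript of 3 exons and 499 bases, went from 13 to 37 reads. CD63-206, of 5 exons and 145 codons, went from 2 to 18 reads, and CD63-216, a retained-intron transcript of 230 bases, from 2 to 12 reads. The models that gained reads were thus the shorter ones, and models with the coding exons of CD63-201 held 92.5% of known reads (88.4 to 95.3%) in replicate 1 and 74.6% (69.0 to 79.5%) in replicate 2.

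In CD81, CD81-201 held 239 of 258 known reads (92.6%) and 166 of 201 (82.6%). CD81-207 starts within intron 2 of CD81-201, has 242 annotated codons and held 6 and 11 reads. The retained-intron transcripts CD81-206 (2 exons) and CD81-204 (5 exons) held 7 and 14, and 4 and 8 reads. In CD53, CD53-201 held 206 of 239 known reads (86.2%) and 130 of 158 (82.3%). CD53-206 has 1 more untranslated first exon and the same 219 codons, with 24 and 10 reads, and the noncoding CD53-202, of 2 exons and 416 bases, held 8 and 17 reads. CD82 had CD82-201 as its only known model, with 74 and 32 reads. CD151-202 and CD151-203, of 9 and 8 exons, which share the same 253 codons, held 7 and 6, and 4 and 5 reads, so neither led clearly.

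The share of the main model among known reads differed between the libraries in 3 of the 4 genes that could be tested, against 12.5% of the 1878 genes tested (Fisher's exact test, adjusted over all genes). The difference was -14.4 points in CD63 (adjusted p = 0.00503) and -10.05 points in CD81 (0.0131), and in CD37 the share rose by 9.93 points (0.0222). In CD53 the difference was -3.91 points (adjusted p = 0.685). Over all genes 27 were called higher and 207 lower, and the median difference was -2.84 points, so CD37 belonged to the smaller group. When ISM, NIC and NNC reads were counted too, the share of the main model of CD37 differed by -6.31 points (adjusted p = 0.180), the opposite sign.

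**Figure D5:**
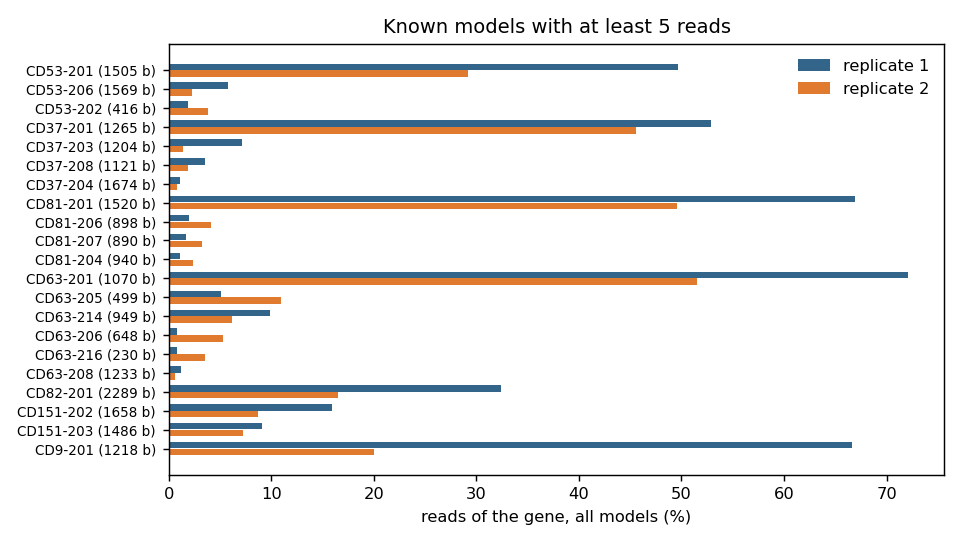
Reads in each known model with at least 5 reads, as percent of all reads of its gene, in replicate 1 and replicate 2, with the length of the model in bases. The main models hold less of their gene in replicate 2, while the short models CD63-205, CD63-206, CD63-216 and CD53-202 hold more.

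NIC models held 3.18 and 2.78% of the reads of the 7 genes, against 4.13 and 2.90% over all annotated genes, and NNC models 5.16 and 2.83% against 4.38 and 3.14%. In CD151, NIC models held 7 of 44 reads (15.9%) and 8 of 69 (11.6%). The 7 genes had 49 NIC and 72 NNC models, of which 8 and 11 had a read in both libraries, against 5568 of 36019 NIC and 5467 of 49907 NNC models over all genes. A total of 147 of all 258 models rested on a single read. With at least 3 reads in each library, 3 NIC and 2 NNC models remained. CD37 had the NIC models ENCODEHT000534348 (8 exons, 1205 bases) with 11 and 13 reads, and ENCODEHT000534355 (8 exons, 1827 bases) with 11 and 8 reads. CD81 had the NNC models ENCODEHT000227502 (8 exons, 1494 bases) with 16 and 7 reads, 4.48 and 2.09% of the gene, and ENCODEHT000227517 (8 exons, 1501 bases) with 5 and 4 reads. Both have the exon number of CD81-201 and are shorter than its 1520 bases. CD151 had the NIC model ENCODEHT000224245 (8 exons, 1444 bases) with 3 and 3 reads.

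Among 26 other tetraspanin genes, 11 had a read and 7 had at least 10. TSPAN33, which binds the metalloprotease ADAM10, had the most reads, with 333 and 258 reads, 245 and 171 CPM. Its mean of 208 CPM was close to the 205 CPM of CD63, while per kb its mean of 112 CPM lay between CD81 and CD82. It was also the only one called, and fell by 0.52 on the log2 scale (adjusted p = 0.000813, exact binomial test, against the 2.33% called lower above). TSPAN3 had 34.5 and 31.8 CPM, TSPAN31 30.1 and 29.1, TSPAN14 22.8 and 17.9, TSPAN17 18.4 and 15.2, TSPAN4 8.82 and 7.28 and TSPAN18 4.41 and 3.97 CPM. Per kb, TSPAN31 had 17.6 CPM and TSPAN3 5.53 CPM, both below CD151 with 24.7. The other 15 genes on the list, with TSPAN1, TSPAN8 and the uroplakin genes UPK1A and UPK1B among them, had no read in either library.

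Of 11 genes for known partners of tetraspanins, 9 had at least 10 reads, 2 rose and none fell, against 2.72% of all genes tested called higher and 2.33% lower. Their log2 ratios had a median of 0.56, and those of all genes 0.01. CR2, the complement receptor that is part of the B cell coreceptor with CD81, had 45 and 100 reads, 33.1 and 66.2 CPM, and rose by 0.99 on the log2 scale (adjusted p = 0.00322, exact binomial test). IFITM1, another component of that complex, had 565 and 856 CPM and rose by 0.60 (adjusted p = 7.51e-18), although IFITM1 has close paralogs and the assignment of its reads is uncertain. ITGA4, the alpha chain of integrin VLA-4, had 34.5 and 27.1 CPM and ITGB1, its beta chain, 9.56 and 9.93 CPM. IGSF8 and PTGFRN, immunoglobulin superfamily proteins that bind CD9 and CD81, had 19 and 29 reads and 4 and 18 reads. ADAM10 had 16.9 and 25.1 CPM, and ITGA6 and EPCAM had no read.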

How the data were processed

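Raw counts of reads per transcript model were deposited by the authors in 1 table, with a column per replicate of direct RNA sequencing of GM12878. Its name shows that models were assigned with TALON. Per the submitters' processing notes, minimap2 and hg38 were used, with no role or version given; annotation and read filters are not given in the sources used here. The table, as deposited, also gives other properties of each model, its exon number and length. All sample columns were matched by title.

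Gene counts are sums over the models of a gene; CPM divides them by the library total (1360368 and 1510998 reads). With 2 libraries of 1 group, a model between groups has no residual degrees of freedom, so levels were compared by two-sided exact binomial tests over genes with at least 10 reads, and shares by Fisher's exact tests over genes with at least 20 reads in each library, with Benjamini-Hochberg adjustment over all genes and a threshold of 0.05 (Python 3.11.15, scipy 1.17.1). Log2 ratios add 0.5 reads. Both tests were checked on simulated data drawn with counting error only, so the check does not cover other variation between libraries. Wilson intervals and the floor of 3 reads cover counting error only. Alternatives used TMM (edgeR 4.0.16), DESeq2 1.42.0 size factors, other minimum counts and subsets of models. Exons, transcript types and sequences are from GENCODE release 29 (GRCh38), matched by versioned identifier.

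The genes and lists were chosen with earlier results of these data known. Named were the 7 genes, other tetraspanins with at least 10 reads, partner genes, known models with at least 5 reads, leading ISM models, and NIC or NNC models with at least 3 reads in each library. No gene was sought for a similar pattern, since 2 libraries give none. A gene of the partner and B cell lists is not reported here and was left out of their counts.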

Additional observations from a re-analysis of the deposited data

How the results depend on the processing

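No paired analysis was possible because both libraries belong to 1 group. With either replicate left out, the remaining one has the values printed for it throughout. The number of genes differing in level was 0 under TMM, DESeq2 size factors, no minimum count and a minimum of 50 reads, 3 with known models only and 1 without genomic models. With known models only, the log2 ratio changed sign in CD37 (-0.12) and CD151 (-0.15), neither of which passed. The number of genes with a lower known share was 3 in place of 5 among models with 2 or more exons, and that with a lower full splice share was also 3 in place of 5; single-exon models are removed by this choice. With suffix models only, CD82 differed by -12.3 points in full splice share on fewer reads and lost its call (adjusted p = 0.301, Fisher's exact test). The main model share of CD37 changed sign, to -6.31 points, when ISM, NIC and NNC reads were counted. NIC and NNC models read in both libraries numbered 19 with at least 1 read and 3 with at least 5 reads in each, in place of 5. CD9, with 11 reads, was too shallow for the share tests, and CD151, with 12 known reads in each library, for the test of its main model.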
